A study of Mus musculus with 18 samples.

Results

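Control airway samples taken 3 hr after naphthalene injury were compared with control samples at 0 hr, on 3 arrays per time and 6 of the 18 arrays of the series, chosen by labelled genotype and time. The labels describe terminal bronchiolar epithelial cells from the lungs of control mice of a mixture of the strains FVB/N and C57BL/6, and they list naphthalene as the treatment of the 0 hr samples too, without saying whether those mice received it. The other groups used here were Cebpa d/d mice of the same background at 0 and 3 hr and control mice at 72 hr, with 3 arrays each. The 3 arrays of Cebpa d/d mice at 72 hr served only to estimate the spread. The protein of Cebpa, C/EBP alpha, is a transcription factor of airway and alveolar epithelium, and the labels do not say what drives its deletion or what else the control mice carry. Age, the way the cells were collected and whether replicates came from separate animals are not given either. By the sex-linked transcripts Xist and Eif2s3y, 1 of the 3 arrays at 0 hr and 1 of the 3 at 3 hr came from a female, so each group holds more than 1 animal. The p-values below reflect only how far the 18 arrays spread within their groups, and some of that spread may be technical.

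Naphthalene is harmful to the distal airway because Cyp2f2, a cytochrome P450 enzyme of club cells, turns it into reactive products that are captured by glutathione until that store runs low, after which the cells die and are shed. Cells that meet such products release the transcription factor NRF2 from its inhibitor KEAP1, and NRF2 with small MAF proteins switches on genes for glutathione synthesis, thioredoxin, NADPH and haem breakdown. Shortage of amino acids or misfolded protein acts through ATF4, which raises amino acid uptake and tRNA charging, while damage to cells and their neighbours acts through the EGF receptor and MAP kinases on immediate early genes.

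The deposited values were log2 levels made with RMA, a procedure that corrects background, normalizes arrays and summarises probe sets, and array medians lay between 6.48 and 6.65. Genes were said to have risen or fallen where limma gave an adjusted p under 0.05 (Benjamini-Hochberg over 19938 genes). Every difference is 3 hr minus 0 hr in log2 units, from 3 arrays against 3 arrays. It is given ± its standard error (SE), which takes its spread from all 18 arrays. Cebpa was read first. Its level was 7.89, 10.07 and 10.17 in replicates 1, 2 and 3 at 0 hr and 10.52, 10.30 and 10.32 at 3 hr, while the 3 Cebpa d/d arrays at 0 hr lay between 7.83 and 8.27. The array labelled as control 0 hr replicate 1 thus went against its label, and the counts are given with and without it, as are the values of the genes that carry the results. The Cebpa difference was 1.01 ± 0.42 (adjusted p = 0.18), and 0.26 without that array (adjusted p = 0.627). The 3 hr arrays were unequal as well: 3 hr replicate 1 correlated at 0.9855 over all probe sets with 0 hr replicate 2, against 0.9814 and 0.9725 with the other 3 hr arrays. The club cell genes Scgb1a1, the main secretory protein, and Cyp2f2 had levels of 12.66 to 12.79 and 13.04 to 13.31 in the 6 arrays. Transcripts of other lung cells were present too, with Sftpc of alveolar type 2 cells at 12.96 to 13.26 and Myh11 of smooth muscle at 9.92 to 10.94, so the samples were not club cells alone.

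Between 0 and 3 hr, 374 genes rose and 323 fell, which is 1.88% and 1.62% of the genes tested, or 3.5% in either direction. Of them 84 rose and 36 fell at least 2-fold (0.602% of genes together), the arrays of the times did not overlap for 367 and 319 (11.3% and 8.98% of all genes went that way), and the median over all genes was 0.03. The genes with the largest rises were the cystine transporter Slc7a11, the haem oxygenase Hmox1, the cytokine Il1f9, the metallothionein Mt2 and the aldo-keto reductase Akr1b8. Those with the largest falls were Nynrin, the growth factor binding protein Igfbp5 and the apelin receptor Aplnr. Nynrin holds that place on 1 of its probe sets, and the mean of its probe sets differed by -0.711. Without the array labelled as control 0 hr replicate 1, 228 genes rose and 81 fell (1.14% and 0.406%). Among them were 205 of the 374 and 66 of the 323. All 697 kept their sign, which leaving out an array could not change for the 367 and 319 without overlap. The spread was estimated over all 18 arrays, and with the 6 control arrays alone 50 genes rose and 5 fell. In that fit 31 of 129 called genes examined one by one passed. Calls kept below with an array left out still rest on the spread of the other groups. Leaving out 3 hr replicate 1 raised the counts to 744 and 670 (3.73% and 3.36%), and they fell to 178 and 101 without 0 hr replicate 3, to 183 and 127 without 3 hr replicate 2 and to 181 and 50 without 3 hr replicate 3. List counts with an array left out move with these totals as well.

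Glutathione synthesis and cystine supply rose together. Of 26 measured genes on that list 8 rose and 0 fell, with a median of 0.23, and the count was 6 to 8 with each array left out in turn. Slc7a11, which imports cystine, the raw material of glutathione, read 6.91, 5.70 and 5.64 at 0 hr and 11.35, 11.00 and 10.98 at 3 hr. This was the largest rise of all genes that passed, 32.5-fold or 5.02 ± 0.30 (adjusted p = 4.92e-08), with the highest 0 hr value in the array labelled replicate 1 and no overlap between times. Its partner chain Slc3a2 read 9.90, 9.41 and 9.31 and then 10.71, 10.56 and 10.30 (0.98 ± 0.16, adjusted p = 0.00288). Both subunits of glutamate cysteine ligase, the first enzyme of glutathione synthesis, rose. The catalytic subunit Gclc went from 11.02, 10.66 and 10.09 to 12.75, 12.74 and 12.63 (2.12 ± 0.18, adjusted p = 6.48e-06), and the modifier subunit Gclm from 8.06, 7.84 and 7.91 to 10.05, 9.98 and 9.44 (1.89 ± 0.14, adjusted p = 7.28e-07). Chac1, which degrades glutathione and is induced through ATF4, rose by 1.12 ± 0.13, and Gpx2, a glutathione peroxidase of epithelia, by 0.91 ± 0.15 (adjusted p = 0.000158 and 0.00465). All 6 genes passed without each of the 6 arrays in turn. Fitted on the 6 control arrays alone, Slc7a11, Gclc and Gclm passed, while Slc3a2, Chac1 and Gpx2 did not (adjusted p = 0.0866, 0.0508 and 0.0604). Slc7a11, Slc3a2, Gclc, Gclm, Chac1 and Gpx2 differed by 5.44, 1.16, 2.33, 1.95, 1.11 and 0.96 with the array labelled as control 0 hr replicate 1 left out, and all passed (adjusted p of at most 0.0102).

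Genes of the NRF2 programme outside glutathione followed: 15 of 40 measured genes rose and 0 fell, with a median of 0.22. The count was 14 without the array labelled as control 0 hr replicate 1, 12, 14 and 12 without 0 hr replicate 2, 3 hr replicate 1 and 3 hr replicate 3, and 8 and 9 without 0 hr replicate 3 and 3 hr replicate 2. Srxn1, sulfiredoxin, which repairs over-oxidised peroxiredoxins, read 8.27, 8.20 and 7.96 at 0 hr and 10.65, 10.87 and 10.55 at 3 hr (2.55 ± 0.14, adjusted p = 1.57e-08). Osgin1, an oxidative stress induced growth inhibitor, read 7.07, 7.20 and 7.10 and then 8.77, 8.71 and 8.69 (1.60 ± 0.12, adjusted p = 1.01e-06). Its arrays of the same time lay close together. Txnrd1, thioredoxin reductase, rose by 1.61 ± 0.17, Nqo1, a quinone reductase, by 1.45 ± 0.21, and Sqstm1, the p62 adaptor that binds KEAP1, by 1.29 ± 0.15 (adjusted p = 6.67e-05, 0.0013 and 0.000158). The small MAF genes Maff and Mafg rose by 0.98 ± 0.15 and 0.43 ± 0.09 (adjusted p = 0.00198 and 0.0122). Mafg did not pass without 0 hr replicate 3 (adjusted p = 0.0514) or 3 hr replicate 2 (adjusted p = 0.0525). Fitted on the 6 control arrays alone, Nqo1, Sqstm1 and Mafg did not pass (adjusted p = 0.0522, 0.0604 and 0.145). The transcripts of the regulators themselves did not pass. Nfe2l2, which encodes NRF2, read 10.99, 10.59 and 10.58 at 0 hr and 10.84, 11.07 and 10.88 at 3 hr, with overlapping arrays (0.21 ± 0.14, adjusted p = 0.396), and Keap1 differed by 0.31 ± 0.09 (adjusted p = 0.0635). The same values were 0.35 and 0.38 for Nfe2l2 and Keap1 without the array labelled as control 0 hr replicate 1 (adjusted p of 0.231 and 0.063). Srxn1, Osgin1, Txnrd1, Nqo1, Sqstm1, Maff and Mafg differed by 2.61, 1.57, 1.72, 1.73, 1.31, 1.01 and 0.41 with the array labelled as control 0 hr replicate 1 left out, and all passed (adjusted p of at most 0.0458).

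**Figure D1:**
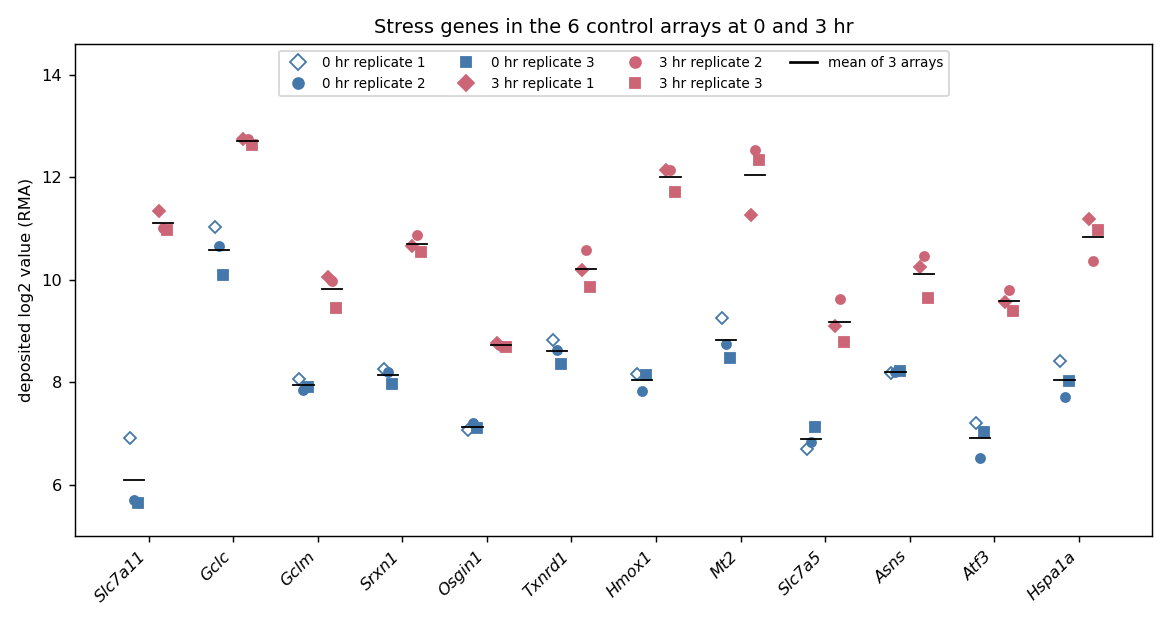
Deposited log2 values of 12 stress genes in each of the 6 control arrays, with 0 hr in blue and 3 hr in red; symbols mark the replicate, the open diamond is the array labelled as control 0 hr replicate 1 and bars are means of 3 arrays. For every gene shown the 3 arrays at 3 hr lie above the 3 arrays at 0 hr. Asns has the tightest group at 0 hr and Osgin1 the tightest at 3 hr.

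The 250 bases before the start site of 6 of these stress genes are shown because they hold short motifs known to be read by the factors named above. Of 61 stress-list genes that rose, 50 had a window in the RefSeq table (GRCm38.p6) and 35 held a searched motif on either strand. The 6 were the first of those 35 by adjusted p, so they were chosen for holding a motif. The share of all genes that hold any searched motif was not computed, so 35 of 50 cannot be read as an excess. The commonest of these motifs alone was found in 3266 of the 19177 windows of all genes. Letters in capitals mark matches to the antioxidant response element core TGACNNNGC, the AP-1 site TGANTCA, the cyclic AMP response element TGACGTCA, the amino acid response element core TGATGNAA, the heat shock element core GAANNTTC, the metal response element core TGCGCNC or the CArG box; matches that overlap run together. Each sequence reads 5′ to 3′ along the gene's strand.
Srxn1, chr2:152105274-152105523, plus strand: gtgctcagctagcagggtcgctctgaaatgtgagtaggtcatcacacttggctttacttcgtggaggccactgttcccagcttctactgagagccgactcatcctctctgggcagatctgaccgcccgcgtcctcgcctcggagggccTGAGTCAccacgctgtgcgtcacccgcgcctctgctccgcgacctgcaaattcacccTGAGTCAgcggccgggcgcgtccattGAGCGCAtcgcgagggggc
Gclm, chr3:122245307-122245556, plus strand: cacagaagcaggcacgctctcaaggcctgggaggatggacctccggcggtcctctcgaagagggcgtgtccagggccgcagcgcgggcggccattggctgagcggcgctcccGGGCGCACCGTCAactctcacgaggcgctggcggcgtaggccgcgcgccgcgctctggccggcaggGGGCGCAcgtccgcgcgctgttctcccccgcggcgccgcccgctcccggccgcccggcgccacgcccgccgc
Osgin1, chr8:119436897-119437146, plus strand: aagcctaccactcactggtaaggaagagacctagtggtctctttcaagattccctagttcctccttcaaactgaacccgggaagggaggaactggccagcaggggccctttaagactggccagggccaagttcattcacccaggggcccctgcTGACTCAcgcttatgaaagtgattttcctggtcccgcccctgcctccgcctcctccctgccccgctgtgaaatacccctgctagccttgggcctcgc
Slc7a11, chr3:50443614-50443863, minus strand: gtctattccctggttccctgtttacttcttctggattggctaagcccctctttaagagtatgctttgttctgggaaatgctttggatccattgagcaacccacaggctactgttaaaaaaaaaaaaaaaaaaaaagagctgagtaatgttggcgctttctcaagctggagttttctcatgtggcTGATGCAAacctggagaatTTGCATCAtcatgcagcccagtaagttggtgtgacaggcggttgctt
Asns, chr6:7693210-7693459, minus strand: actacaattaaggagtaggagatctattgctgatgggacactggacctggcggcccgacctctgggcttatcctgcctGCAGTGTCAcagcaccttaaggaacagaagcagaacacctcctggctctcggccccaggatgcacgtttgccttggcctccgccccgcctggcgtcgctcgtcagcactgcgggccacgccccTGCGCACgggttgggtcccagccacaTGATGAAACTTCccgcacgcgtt
Atf3, chr1:191183334-191183583, minus strand: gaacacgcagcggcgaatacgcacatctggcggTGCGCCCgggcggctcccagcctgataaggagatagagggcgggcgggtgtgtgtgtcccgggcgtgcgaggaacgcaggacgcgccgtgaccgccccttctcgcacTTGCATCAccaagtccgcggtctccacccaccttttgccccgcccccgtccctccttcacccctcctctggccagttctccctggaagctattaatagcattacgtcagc

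Srxn1 holds TGAGTCA at 2 places, its first bases 102 and 45 before the start, and Osgin1 holds TGACTCA at 97. These are AP-1 sites, and neither window holds an antioxidant or amino acid response element core. Gclm holds an antioxidant response element core on its minus strand at 134, overlapping a metal response element core. Slc7a11 holds 2 amino acid response element cores, one on each strand at 66 and 47. Asns, an ATF4 target described below, holds TGATGAAA at 23, overlapping a heat shock element core, and Atf3 holds TTGCATCA at 110. The antioxidant response element core was found in 8 of 20 windows of the NRF2-list genes that rose, in 63 of 368 (17.1%) of all genes that rose, in 41 of 315 windows of genes that fell and in 10.8% of the 19177 windows of all genes. For the amino acid response element core the shares were 6 of 25 windows of the ATF4-list genes that rose, 3.53% of all that rose, 2.22% of those that fell and 2.68% overall. The same 25 windows held the metal response element core in 9 and the antioxidant response element core in 5, where 3266 and 2072 of all 19177 windows hold them. For the CArG box they were 5 of 18 windows of the immediate early genes that rose and 1.26% overall. These are matches of letters, not sites shown to be bound.

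Haem and iron genes changed in few members, but one of them strongly. Hmox1, which breaks down haem, read 8.17, 7.82 and 8.14 at 0 hr and 12.15, 12.14 and 11.72 at 3 hr. The rise was 15.6-fold or 3.96 ± 0.15, with the smallest adjusted p of the comparison (1.74e-10). In all 5 of 25 genes rose and 0 fell, with a median of 0.03, equal to that of all genes. Bach1, the repressor of Hmox1 that haem removes, rose by 0.78 ± 0.08 (adjusted p = 6.96e-05), from 8.05, 8.07 and 8.02 to 8.84, 8.98 and 8.66. The haem transporters Slc48a1 (0.58 ± 0.12) and Flvcr1 (0.66 ± 0.14) and the ferritin light chain Ftl1 (0.50 ± 0.13) rose too (adjusted p = 0.0147, 0.02 and 0.0429). Flvcr1 differed by 0.382 with the mean of its probe sets. Slc48a1, Flvcr1 and Ftl1 did not pass with the 6 control arrays alone (adjusted p = 0.137, 0.183 and 0.151). Hmox1, Bach1 and Slc48a1 differed by 4.02, 0.78 and 0.70 with the array labelled as control 0 hr replicate 1 left out, and all passed (adjusted p of at most 0.00683). With one array left out 3 or 4 genes of the list rose, 3 of them without any single 0 hr array. Slc48a1 did not pass without 0 hr replicate 3 (adjusted p = 0.0669), Flvcr1 without any of 0 hr replicates 1 and 2 and 3 hr replicate 3 (adjusted p = 0.066, 0.054 and 0.0769), and Ftl1, which has many near-identical copies, passed only with all arrays or without 3 hr replicate 3.

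The ATF4 programme had the largest share of members that rose: 28 of 43, and 0 fell, with a median of 0.64. The arrays of the 2 times did not overlap, with 3 hr higher, for 33 of the 43, against 11.3% of all genes. The count was 17 to 25 with one array left out, and 21 without the array labelled as control 0 hr replicate 1; it was lowest, at 17, without 3 hr replicate 2. Slc7a5, a carrier of large neutral amino acids, read 6.70, 6.84 and 7.12 and then 9.09, 9.63 and 8.78 (2.28 ± 0.19, adjusted p = 3.60e-06). Asns, asparagine synthetase, read 8.18, 8.20 and 8.21 and then 10.25, 10.47 and 9.64 (1.92 ± 0.17, adjusted p = 6.48e-06). Atf3, a stress transcription factor of the same family, read 7.20, 6.52 and 7.02 and then 9.56, 9.80 and 9.39 (2.67 ± 0.27, adjusted p = 5.30e-05). Ddit3, which encodes the factor CHOP, rose by 1.33 ± 0.16 (adjusted p = 0.000158), from 8.59 to 8.69 at 0 hr to 9.66 to 10.17 at 3 hr. In Slc7a5, Asns and Ddit3 replicate 2 was the highest and replicate 3 the lowest of the 3 hr arrays. The transcript of Atf4 itself rose by 0.88 ± 0.19 (adjusted p = 0.0199), from 9.21, 8.74 and 8.80 to 9.69, 10.28 and 9.41; it did not pass without 0 hr replicate 2, 0 hr replicate 3 or 3 hr replicate 2 (adjusted p = 0.0506, 0.0731 and 0.0713). Mthfd2, a mitochondrial folate enzyme, rose by 1.94 ± 0.34 with 3 hr arrays at 8.22, 9.31 and 7.57 (adjusted p = 0.00616). Atf4 and Mthfd2 did not pass with the 6 control arrays alone (adjusted p = 0.174 and 0.113). Slc7a5, Asns, Atf3, Ddit3, Atf4 and Mthfd2 differed by 2.19, 1.92, 2.81, 1.31, 1.03 and 1.94 with the array labelled as control 0 hr replicate 1 left out, and all passed (adjusted p of at most 0.0207).

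Other branches of protein stress gave fewer calls. Of 26 chaperones of the endoplasmic reticulum 2 rose and 0 fell, with a median of 0.07: Dnajb9 by 1.21 ± 0.14 (adjusted p = 0.000158) and the sensor Ern1 by 0.37 ± 0.09 (adjusted p = 0.0261). Ern1 did not pass without 0 hr replicates 1 or 3 or 3 hr replicates 2 or 3 (adjusted p = 0.0745, 0.0963, 0.0798 and 0.0685). Without 3 hr replicate 1, 3 rose and 2 fell. The main chaperone Hspa5 read 11.36, 11.43 and 11.42 and then 11.70, 11.84 and 11.57, which did not pass (0.30 ± 0.12, adjusted p = 0.179). Of 25 cytosolic and mitochondrial heat shock genes 5 rose and 0 fell, with a median of 0.29. The count was 3 without 0 hr replicate 3 or 3 hr replicate 3, 4 or 5 without the other arrays, and 2 genes fell without 3 hr replicate 1. The small heat shock gene Hspb1 rose by 1.02 ± 0.27 (adjusted p = 0.0481) and lost its call without any one of the 6 arrays (adjusted p of 0.0538 to 0.164). Hspa1a, the stress-inducible HSP70, read 8.42, 7.71 and 8.02 at 0 hr and 11.19, 10.36 and 10.98 at 3 hr (2.79 ± 0.37, adjusted p = 0.000546); a near-identical copy can share its signal. Dnajb1, its partner, read 8.37, 8.01 and 8.08 and then 10.09, 9.45 and 9.24 (1.44 ± 0.29, adjusted p = 0.0125). The mitochondrial chaperone Hspa9 rose by 0.68 ± 0.11 (adjusted p = 0.00288) and Bag3, a partner of HSP70, by 0.68 ± 0.14 (adjusted p = 0.0176). Bag3 did not pass without 0 hr replicate 3 or 3 hr replicate 3 (adjusted p = 0.0649 and 0.0636). Neither Hspa9 nor Bag3 passed with the 6 control arrays alone (adjusted p = 0.0803 and 0.0965). Hspa8, the constitutive HSP70, differed by 0.17 ± 0.10 (adjusted p = 0.356). Dnajb9, Hspa1a, Dnajb1, Hspa9 and Bag3 differed by 1.30, 2.98, 1.55, 0.72 and 0.71 with the array labelled as control 0 hr replicate 1 left out, and all passed (adjusted p of at most 0.0421). The same values were 0.28 and 0.12 for Hspa5 and Hspa8 without that array (adjusted p of 0.351 and 0.681). The mean of the 25 heat shock genes lay 0.64 above the 0 hr mean in 3 hr replicate 1, and 0.19 and 0.26 above it in replicates 2 and 3.

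Metallothioneins and genes known to answer glucocorticoids rose as well. Mt2 read 9.25, 8.74 and 8.48 at 0 hr and 11.27, 12.54 and 12.33 at 3 hr (3.22 ± 0.37, adjusted p = 0.000138), and Mt1 read 10.20, 9.45 and 9.79 and then 11.20, 12.07 and 12.07 (1.97 ± 0.28, adjusted p = 0.00126). Both bind zinc and were lowest at 3 hr in replicate 1. They were the 2 of 16 metallothionein and zinc genes that rose (0 fell; median 0.12), and 3 rose without 3 hr replicate 1. Of 19 glucocorticoid targets 8 rose and 0 fell, with a median of 0.60, and 3 to 8 rose with one array left out: 4 without the array labelled as control 0 hr replicate 1, 4 without 0 hr replicate 3, 6 without 0 hr replicate 2 and 3 without 3 hr replicate 2 or 3. Several of the 8 also stand on the lists of stress and immediate early genes. Pdk4, which slows entry of glucose carbon into mitochondria, rose by 2.05 ± 0.36 (adjusted p = 0.00616), from 7.16, 8.23 and 7.93 to 9.42, 10.27 and 9.78. Fkbp5, a chaperone of the glucocorticoid receptor, read 6.70, 7.53 and 7.75 and then 8.50, 8.74 and 8.17 (1.15 ± 0.29, adjusted p = 0.0401), and lost its call without the array labelled as control 0 hr replicate 1 (0.84, adjusted p = 0.152) or any 3 hr array (adjusted p = 0.0519, 0.114 and 0.0699). Tsc22d3, another such target, did not pass (0.09 ± 0.15, adjusted p = 0.757). Mt2, Mt1 and Pdk4 differed by 3.44, 2.16 and 1.74 with the array labelled as control 0 hr replicate 1 left out, and all passed (adjusted p of at most 0.0301).

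**Figure D2:**
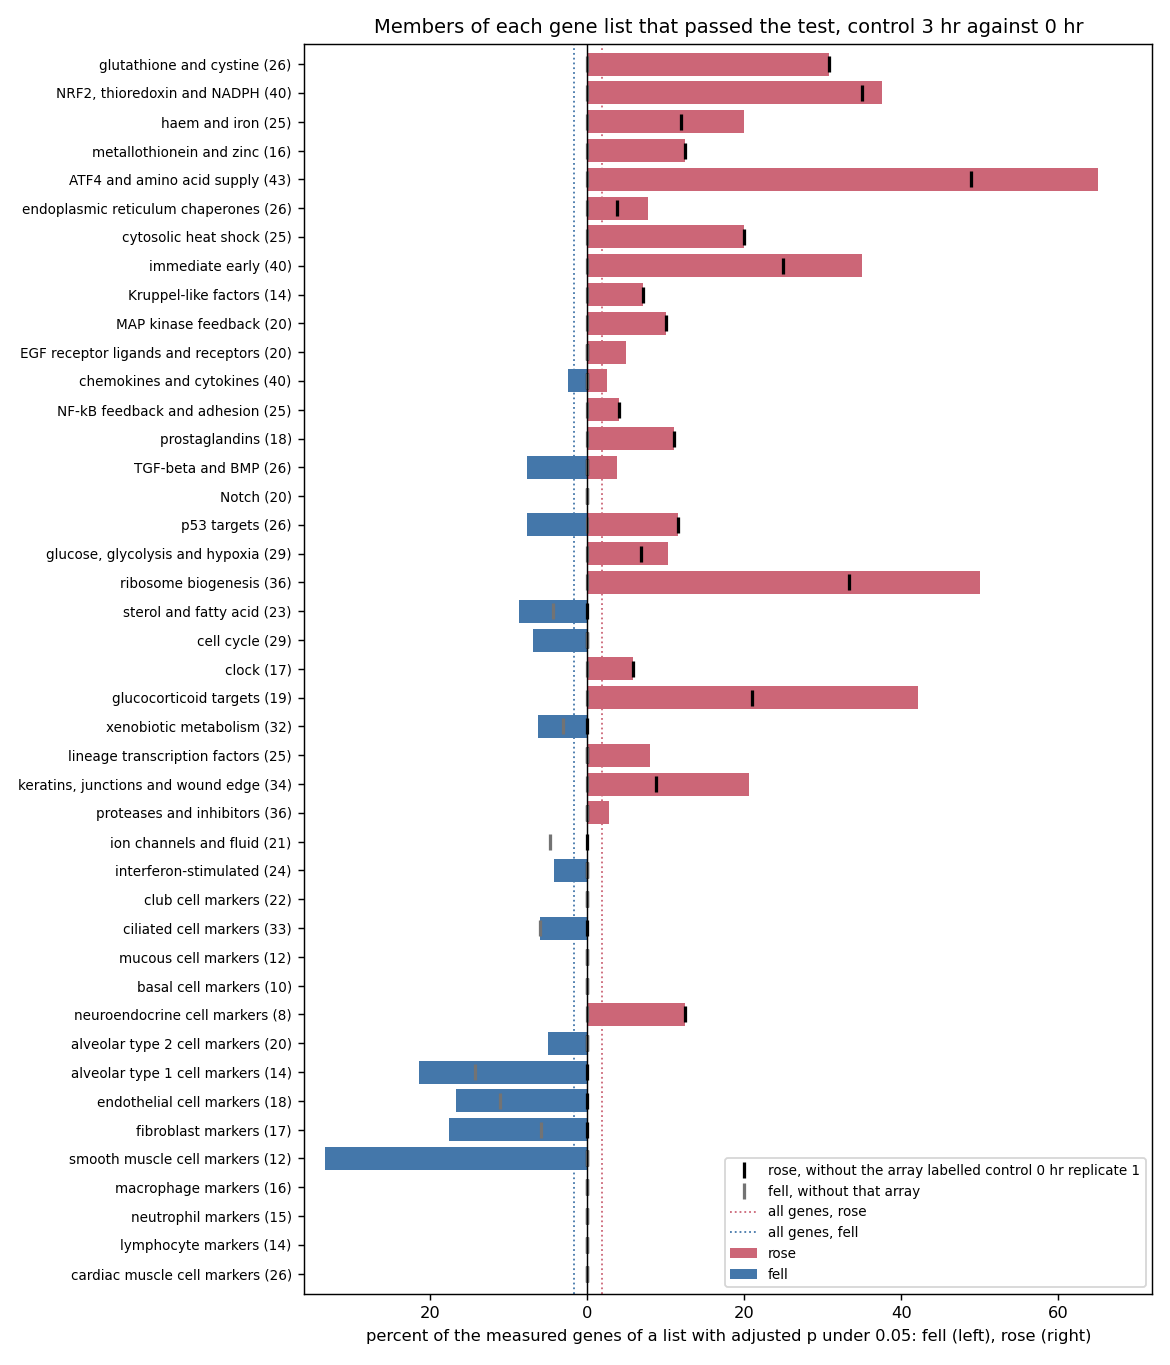
Percent of the measured genes of 43 lists (numbers in brackets) with an adjusted p under 0.05, rose to the right in red and fell to the left in blue; ticks give the same without the array labelled as control 0 hr replicate 1 and dotted lines the shares of all genes, 1.88% and 1.62%. ATF4, ribosome biogenesis and glucocorticoid target lists have the longest bars to the right, and smooth muscle cell markers the longest to the left, which falls to 0 without that array.

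Immediate early genes, which code for transcription factors and their feedback, rose in 14 of 40 cases and fell in 0, with a median of 0.50. The count was 10 without any single 0 hr array, 21 without 3 hr replicate 1, 7 without 3 hr replicate 2 and 6 without 3 hr replicate 3. Egr1, a factor induced through MAP kinases, read 7.26, 6.63 and 6.73 at 0 hr and 8.61, 9.87 and 9.67 at 3 hr (2.51 ± 0.26, adjusted p = 6.15e-05). Myc, which drives growth, read 7.61, 7.34 and 7.33 and then 9.76, 10.35 and 10.43 (2.75 ± 0.28, adjusted p = 5.48e-05). Plk3 and Gadd45a, both damage responsive, rose by 1.57 ± 0.20 and 1.25 ± 0.16 (adjusted p = 0.000449 and 0.000303). The AP-1 subunit Fos read 6.64, 6.68 and 6.67 and then 7.06, 8.10 and 8.20 (1.12 ± 0.22, adjusted p = 0.0105), and Fosl1 read 6.02, 6.00 and 5.96 and then 6.73, 8.30 and 7.13 (1.39 ± 0.28, adjusted p = 0.0122). Fos did not pass without 3 hr replicate 2 (adjusted p = 0.0514) or replicate 3 (adjusted p = 0.0576). In every gene of this paragraph replicate 1 was the lowest of the 3 hr arrays. Gadd45a, Fos and Fosl1 did not pass with the 6 control arrays alone (adjusted p = 0.0534, 0.149 and 0.154). Egr1, Myc, Plk3, Gadd45a, Fos and Fosl1 differed by 2.71, 2.84, 1.62, 1.38, 1.11 and 1.41 with the array labelled as control 0 hr replicate 1 left out, and all passed (adjusted p of at most 0.038).

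Signalling around these factors was called in few members with all arrays, and in more without 3 hr replicate 1. There 4 of 20 MAP kinase feedback genes and 4 of 20 EGF receptor genes rose. Calls over all genes grew too in that fit, to 3.73% that rose from 1.88% with all arrays. With all arrays 2 of the 20 MAP kinase feedback genes rose, Dusp1, a MAP kinase phosphatase (1.03 ± 0.20, adjusted p = 0.0123), and Errfi1, an inhibitor of the EGF receptor (1.10 ± 0.27, adjusted p = 0.0351). Errfi1 was also the 1 of 20 genes on the EGF receptor list that rose. Neither passed without 0 hr replicate 3 (adjusted p = 0.0569 and 0.0918), 3 hr replicate 2 (0.0551 and 0.113) or 3 hr replicate 3 (0.0557 and 0.0974), and Errfi1 not without 0 hr replicates 1 or 2 (0.0943 and 0.0506). The EGF receptor ligand Hbegf read 7.91, 7.47 and 7.59 at 0 hr and 8.03, 10.21 and 9.85 at 3 hr (1.70 ± 0.50, adjusted p = 0.0702), and Ereg read 4.82, 5.07 and 4.95 and then 4.90, 6.97 and 6.82 (1.28 ± 0.59, adjusted p = 0.226). In both, replicate 1 at 3 hr stood at the 0 hr level. Of 14 Kruppel-like factors 1 rose, Klf6 (0.77 ± 0.14, adjusted p = 0.00901). Without 3 hr replicate 1, 2 of the 14 rose and 1 fell. Neither Dusp1 nor Klf6 passed with the 6 control arrays alone (adjusted p = 0.118 for each). Dusp1 and Klf6 differed by 1.04 and 0.81 with the array labelled as control 0 hr replicate 1 left out, and both passed (adjusted p of at most 0.0374). The same values were 1.83 and 1.22 for Hbegf and Ereg without that array (adjusted p of 0.124 and 0.401).

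Ribosome biogenesis, the making of ribosomal RNA and its processing factors, rose in 18 of 36 genes and fell in 0, with a median of 0.52, and all 36 differences were above 0. The count was 12, 13 and 12 without 0 hr replicates 1, 2 and 3, 25 without 3 hr replicate 1 and 10 without 3 hr replicate 2 or 3. Gnl3, nucleostemin, read 8.72, 8.41 and 8.63 at 0 hr and 9.83, 10.22 and 9.97 at 3 hr (1.42 ± 0.15, adjusted p = 7.30e-05). Mrto4 rose by 0.82 ± 0.11 and Wdr43, a pre-ribosome factor, by 1.03 ± 0.16 (adjusted p = 0.000398 and 0.00227). The core proteins of small nucleolar ribonucleoprotein particles Nop56 and Nop58 rose by 1.03 ± 0.17 and 0.98 ± 0.15 (adjusted p = 0.00369 and 0.00228). All 5 genes passed with each of the 6 arrays left out in turn. Fitted on the 6 control arrays alone, Gnl3 and Mrto4 passed, while Wdr43, Nop56 and Nop58 did not (adjusted p = 0.0563, 0.0865 and 0.0508). Gnl3, Mrto4, Wdr43 and Nop56 differed by 1.49, 0.86, 1.04 and 1.12 with the array labelled as control 0 hr replicate 1 left out, and all passed (adjusted p of at most 0.00943).

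Prostaglandin and wound genes showed both firm and uneven members. Ptgs2, cyclooxygenase 2, read 8.99, 9.41 and 8.82 at 0 hr and 11.27, 11.02 and 11.08 at 3 hr (2.05 ± 0.24, adjusted p = 0.000139), and the prostaglandin E2 receptor Ptger4 rose by 0.83 ± 0.16 (adjusted p = 0.00921). They were the 2 of 18 prostaglandin genes that rose, and 2 rose with each array left out. Of 34 keratin, junction and wound edge genes 7 rose and 0 fell, with a median of 0.32; without the array labelled as control 0 hr replicate 1 the count was 3, and it was 3 and 2 without 0 hr replicates 2 and 3, 12 without 3 hr replicate 1, and 1 and 2 without 3 hr replicates 2 and 3. The simple epithelial keratin Krt8 read 11.37, 11.02 and 11.33 and then 11.93, 12.79 and 12.36 (1.12 ± 0.21, adjusted p = 0.00926), and its partner Krt18 rose by 1.02 ± 0.20 (adjusted p = 0.0135). Krt18 did not pass without 0 hr replicate 3 (adjusted p = 0.0602) or 3 hr replicate 2 (adjusted p = 0.0585). Neither Krt8 nor Krt18 passed with the 6 control arrays alone (adjusted p = 0.0952 and 0.127). Plaur, the urokinase receptor, read 6.98, 6.71 and 6.63 and then 7.24, 9.41 and 9.17 (1.83 ± 0.43, adjusted p = 0.0272), and passed only with all arrays or without 3 hr replicate 1. Krt5 of basal cells did not pass (0.15 ± 0.12, adjusted p = 0.488). Ptgs2, Ptger4, Krt8 and Krt18 differed by 2.01, 0.85, 1.19 and 1.20 with the array labelled as control 0 hr replicate 1 left out, and all passed (adjusted p of at most 0.0289).

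Cytokine genes were called about as often as all genes. Among 40 chemokine and cytokine genes 1 rose and 1 fell, where 1.88% and 1.62% of all genes did. Lif, a cytokine of the interleukin 6 family, rose by 0.71 ± 0.18 (adjusted p = 0.0421), and the chemokine Cxcl12 fell by 0.85 ± 0.20 (adjusted p = 0.0277). Without the array labelled as control 0 hr replicate 1 neither passed (adjusted p = 0.0912 and 0.112), nor without 0 hr replicate 3 (0.0664 and 0.0545) or 3 hr replicate 2 (0.127 and 0.0633); Lif also not without 0 hr replicate 2 (0.0898), and Cxcl12 not without 3 hr replicate 3 (0.137). Without 3 hr replicate 1 the list had 5 genes that rose, in a fit where 3.73% of all genes rose. The neutrophil chemoattractants Cxcl1 and Cxcl2 differed by 0.19 ± 0.15 and 0.39 ± 0.41 (adjusted p = 0.504 and 0.614). Of genes chosen after their values were seen, Il6 read 4.23, 3.65 and 4.02 at 0 hr and 4.07, 8.57 and 7.59 at 3 hr (2.78 ± 1.07, adjusted p = 0.153), and the protease inhibitor Timp1 read 6.60, 5.90 and 6.19 and then 6.42, 9.12 and 9.49 (2.12 ± 0.64, adjusted p = 0.0779). In both, replicate 1 at 3 hr stood inside the range of the 0 hr arrays. Il1f9, an interleukin 1 family cytokine of epithelia that was called on all genes and is not on that list, read 5.15, 7.43 and 6.58 and then 10.90, 8.43 and 9.76 (3.31 ± 0.57, adjusted p = 0.00538), with replicate 1 the highest. Of 25 NF-kB feedback and adhesion genes 1 rose, the TWEAK receptor Tnfrsf12a (1.40 ± 0.24, adjusted p = 0.00541), and 5 rose without 3 hr replicate 1. Nfkbia, an inhibitor of NF-kB, did not pass (0.38 ± 0.13, adjusted p = 0.113). Fitted on the 6 control arrays alone, Il1f9 and Tnfrsf12a did not pass (adjusted p = 0.116 and 0.0952). Il1f9 and Tnfrsf12a differed by 2.69 and 1.44 with the array labelled as control 0 hr replicate 1 left out, and both passed (adjusted p of at most 0.0234). The same values were 2.91, 2.30, 0.09 and 0.20 for Il6, Timp1, Cxcl1 and Cxcl2 without that array (adjusted p of 0.252, 0.131, 0.84 and 0.873).

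**Figure D3:**
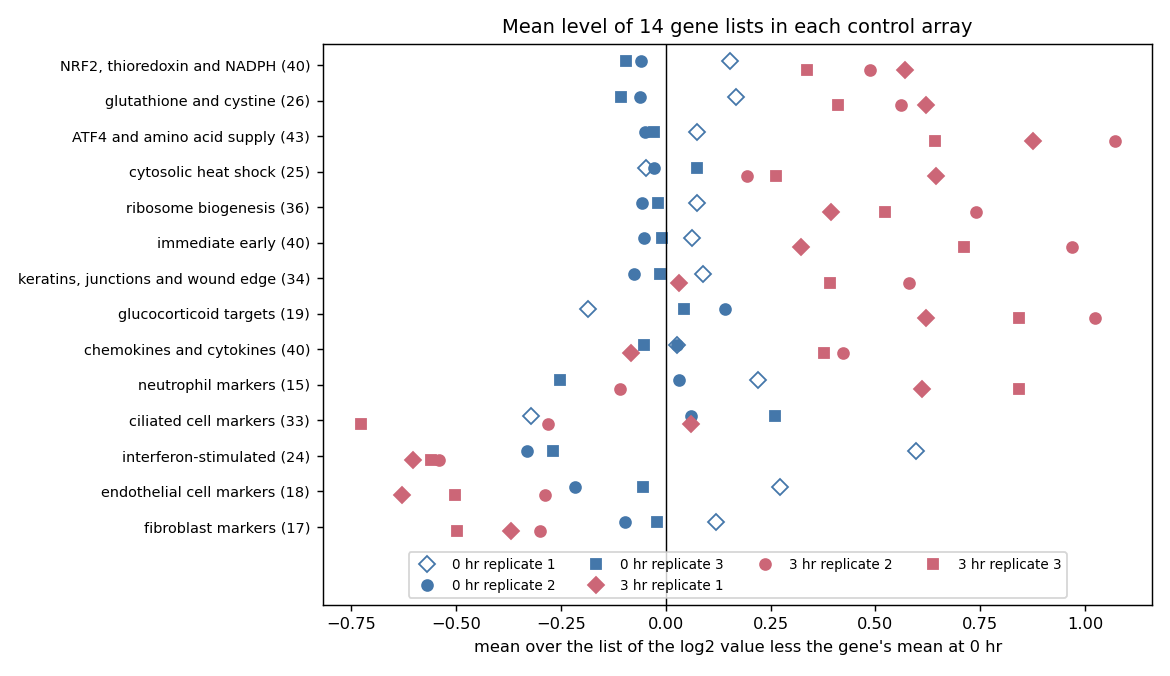
Mean over the genes of 14 lists (numbers in brackets) of the log2 value less each gene's mean at 0 hr, in each of the 6 control arrays, with 0 hr in blue and 3 hr in red. The 3 hr arrays lie right of the 0 hr arrays for the first 6 lists and for glucocorticoid targets, while 3 hr replicate 1 (red diamond) lies among the 0 hr arrays for the keratin and wound edge list and for ciliated cell markers, and below them for chemokines.

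The 3 hr arrays therefore did not share a single order. The mean of the NRF2 list stood 0.57, 0.49 and 0.34 above its 0 hr mean in 3 hr replicates 1, 2 and 3, so replicate 1 was highest. For the keratin and wound edge list the same means were 0.03, 0.58 and 0.39, and for chemokines and cytokines -0.08, 0.42 and 0.38. To set the arrays against genes called on the levels of other arrays, the 531 genes that rose in Cebpa d/d mice were read in each control array. Their calls used the spread of all 18 arrays, the control arrays among them, which favours genes with little spread in control. These 531 genes lay on average 0.48, 0.74 and 0.57 above the 0 hr mean in 3 hr replicates 1, 2 and 3, and 78.7%, 89.6% and 81.0% of them exceeded all 0 hr arrays. Of all genes, 27.2%, 28.2% and 38.6% did so in those arrays. The source of this order was not tested.

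**Figure D4:**
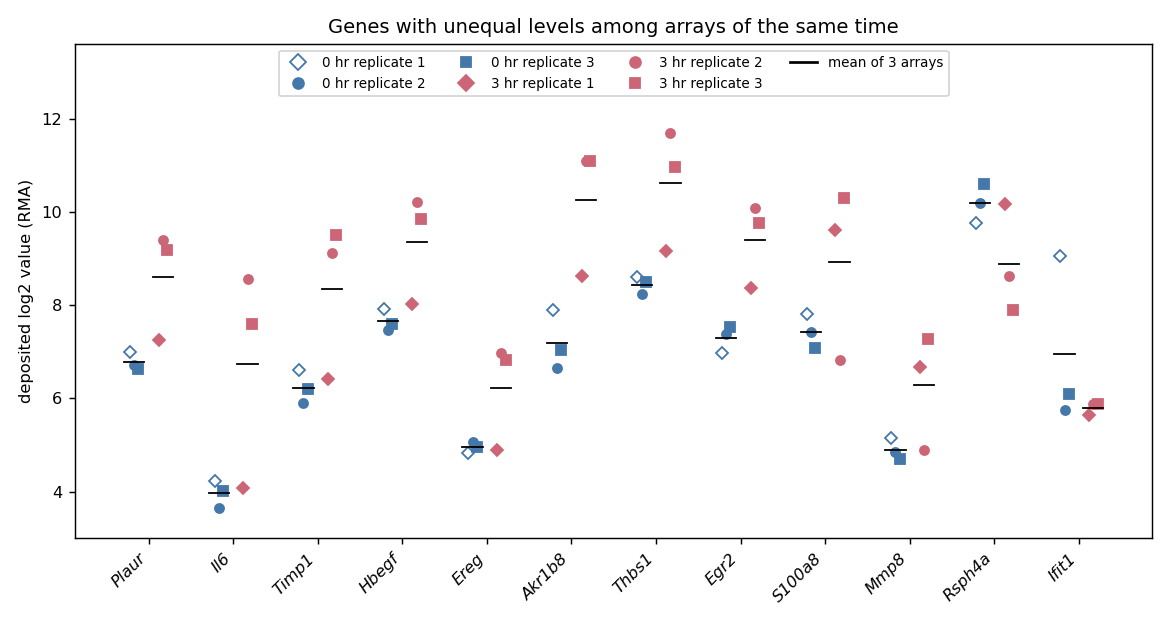
Deposited log2 values of 12 genes in each of the 6 control arrays, drawn as in the plot of stress genes; these genes were chosen after their values were seen for unequal arrays of the same time. Plaur, Il6, Timp1, Hbegf and Ereg are near the 0 hr level in 3 hr replicate 1, S100a8 and Mmp8 in 3 hr replicate 2 and Rsph4a in 3 hr replicate 1, and Ifit1 is high only in 0 hr replicate 1.

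Smaller numbers were called on the remaining lists of response genes. Of 29 genes of glucose use and hypoxia 3 rose and 0 fell: the glucose transporter Slc2a1 read 8.01, 8.13 and 8.16 and then 8.73, 9.50 and 8.97 (0.96 ± 0.16, adjusted p = 0.00335), beside Pdk4 and the hexokinase Hk2 (0.98 ± 0.22, adjusted p = 0.0245). Hk2 lost its call without the array labelled as control 0 hr replicate 1, 3 hr replicate 2 or 3 hr replicate 3 (adjusted p = 0.0871, 0.0892 and 0.091). Without 3 hr replicate 1 the list had 7 that rose and 1 that fell, and without 3 hr replicates 2 or 3 it had 2 that rose. Over all genes 3.73% rose and 3.36% fell without 3 hr replicate 1. Of 26 targets of p53, 3 rose and 2 fell, the latter being Ccng1 and Sesn1. For Ccng1 and Sesn1 the adjusted p was 0.0922 and 0.0644 without the array labelled as control 0 hr replicate 1, 0.0543 and 0.152 without 0 hr replicate 3, 0.0538 and 0.108 without 3 hr replicate 2, and 0.109 and 0.211 without 3 hr replicate 3. Without 0 hr replicate 2 it was 0.0712 for Sesn1. Sesn2, a sestrin, which ATF4 also induces, rose by 0.91 ± 0.13 (adjusted p = 0.0013), beside Plk3 and Gadd45a. Mdm2, the feedback inhibitor of p53, did not pass (0.19 ± 0.12, adjusted p = 0.36). Slc2a1, Plk3 and Gadd45a had adjusted p of 0.101, 0.049 and 0.0534 with the 6 control arrays alone. Slc2a1 and Sesn2 differed by 0.92 and 1.01 with the array labelled as control 0 hr replicate 1 left out, and both passed (adjusted p of at most 0.0158). On the TGF-beta and BMP list of 26, Tgif1, a repressor of that pathway, rose and the ligands Tgfb3 and Bmp6 fell, and 0 passed without the array labelled as control 0 hr replicate 1, 0 hr replicate 3, 3 hr replicate 2 or 3 hr replicate 3. Without 0 hr replicate 2, 1 rose and 3 fell. Of 20 Notch genes and of 21 ion channel and fluid transport genes 0 passed, and at most 2 did with an array left out. Of 17 clock genes 1 rose, Ciart, with 5.70, 5.80 and 5.92 at 0 hr and 7.53, 7.54 and 5.95 at 3 hr (1.20 ± 0.30, adjusted p = 0.0393), which passed only with all arrays or without 3 hr replicate 3. Per1 and Per2 did not pass (0.26 ± 0.18 and 0.02 ± 0.09, adjusted p = 0.427 and 0.922). Of 36 proteases and inhibitors, 1 rose, the matrix protease Adamts4 (0.89 ± 0.20, adjusted p = 0.0213; 0.0843 without the array labelled as control 0 hr replicate 1, 0.0603 without 0 hr replicate 3, and 0.0819 and 0.0924 without 3 hr replicates 2 and 3), and 3 rose and 1 fell without 3 hr replicate 1. The antiprotease Slpi did not pass (0.07 ± 0.26, adjusted p = 0.893).

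Club cell and xenobiotic metabolism lists held no gene that rose with all arrays. Of 22 club cell markers 0 rose and 0 fell, with a median of -0.21, and 1 fell without 3 hr replicate 1. Scgb1a1 differed by -0.02 ± 0.08 and Cyp2f2 by -0.14 ± 0.12 (adjusted p = 0.927 and 0.548), and saturation of these bright probe sets was not examined. Scgb3a1, another secretoglobin, spread from 7.96 to 11.04 at 0 hr and from 6.56 to 9.85 at 3 hr. Of 32 genes of xenobiotic metabolism 2 fell and 0 rose: Cyp1a1, an inducible P450, read 6.60, 7.44 and 6.38 and then 5.76, 5.93 and 5.85 (-0.96 ± 0.20, adjusted p = 0.0147; 0.0516 without 3 hr replicate 3), and Fmo1, a flavin monooxygenase, fell by 0.55 ± 0.14 (adjusted p = 0.0397; 0.139 without the array labelled as control 0 hr replicate 1, and 0.0768, 0.121 and 0.13 without 0 hr replicate 3 and 3 hr replicates 2 and 3). Of 25 lineage transcription factors Cebpd and Cebpb rose, relatives of Cebpa that answer stress, by 1.04 ± 0.24 and 0.47 ± 0.12 (adjusted p = 0.0268 and 0.0449), and neither passed without the array labelled as control 0 hr replicate 1 (adjusted p = 0.0832 and 0.0758). For Cebpd and Cebpb the adjusted p was 0.0828 and 0.152 without 0 hr replicate 3, 0.0797 and 0.108 without 3 hr replicate 2, and 0.132 and 0.162 without 3 hr replicate 3; Cebpb had 0.0545 without 0 hr replicate 2. On the xenobiotic list 5 genes fell and 1 rose without 3 hr replicate 1, 3 fell without 0 hr replicate 2, and 0 or 1 fell without each of the other arrays. Over all genes 3.36% fell and 3.73% rose without 3 hr replicate 1.

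The largest falls among named genes included those of vessel, stromal and muscle cells. Nynrin, of unsettled role, read 9.18, 8.35 and 8.41 at 0 hr and 6.87, 7.19 and 6.09 at 3 hr (-1.93 ± 0.37, adjusted p = 0.0103; 0.0568 without 3 hr replicate 3). With the mean of its probe sets Nynrin differed by -0.711 (adjusted p of 0.0092). Igfbp5, which binds insulin-like growth factors, read 9.42, 9.08 and 8.88 and then 8.42, 7.30 and 6.66 (-1.66 ± 0.29, adjusted p = 0.00616). Ppp1r14a, an inhibitor of myosin phosphatase in smooth muscle, read 9.50, 9.16 and 9.19 and then 8.47, 8.24 and 7.67 (-1.16 ± 0.16, adjusted p = 0.000685). Gja5, a gap junction protein of arteries, fell by 1.14 ± 0.22 (adjusted p = 0.0115). Aplnr, the apelin receptor of endothelium, fell by 1.47 ± 0.31 (adjusted p = 0.0191), and lost its call without the array labelled as control 0 hr replicate 1 (adjusted p = 0.0745) or 3 hr replicate 3 (adjusted p = 0.0876). In all 5 genes that array held the highest 0 hr value. Nynrin, Igfbp5, Ppp1r14a and Gja5 differed by -1.67, -1.51, -1.05 and -1.05 with the array labelled as control 0 hr replicate 1 left out, and all passed (adjusted p of at most 0.0498). Rtp4, Gbp4 and Ifi27l2a were also among the 20 largest falls (-1.456, -1.435 and -1.105, adjusted p = 0.0428, 0.0218 and 0.0311). They too were highest at 0 hr in the array labelled as control 0 hr replicate 1. Without it they did not pass (adjusted p = 0.151, 0.0889 and 0.095). Of the 20 largest falls, Igfbp5, Vsnl1, Ppp1r14a and Gja5 passed with each array left out in turn. Of the 20 largest rises all did except Akr1b8, Thbs1 and Egr2. Fitted on the 6 control arrays alone, Igfbp5, Vsnl1, Ppp1r14a and Gja5 did not pass (adjusted p = 0.139, 0.0824, 0.0862 and 0.0554), while Aplnr did (0.0277). Among the rises Il1f9, Mthfd2, Akr1b8, Thbs1 and Egr2 did not pass in that fit (0.116, 0.113, 0.115, 0.157 and 0.0933). Akr1b8 did not pass without 0 hr replicate 2 or 3 or 3 hr replicate 2 or 3 (adjusted p = 0.054 to 0.111), Thbs1 passed only with all arrays or without 3 hr replicate 1 (adjusted p = 0.116 at most), and Egr2 not without the array labelled as control 0 hr replicate 1 (0.0653) or 3 hr replicates 2 and 3 (0.072 and 0.0841).

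Marker lists of other lung cells moved beside them. Of 12 smooth muscle markers 4 fell, of 18 endothelial markers 3, of 17 fibroblast markers 3 and of 14 alveolar type 1 markers 3, and 0 of them rose. They were Acta2, Myh11, Mylk and Itga8, then Tek, Ptprb and Vwf, then Tcf21, Col3a1 and Col6a1, and Rtkn2, Akap5 and Clic5. The medians were -0.29, -0.45, -0.41 and -0.23. Without the array labelled as control 0 hr replicate 1 the counts were 0, 2, 1 and 2. Without 0 hr replicate 2 they were 5, 4, 2 and 5, and without 3 hr replicate 1 they were 5, 3, 4 and 3. Without 0 hr replicate 3 they were 1, 2, 2 and 2, and without 3 hr replicate 2 they were 2, 4, 1 and 2. Without 3 hr replicate 3 they were 0, 2, 1 and 2. Over all 19938 genes 323 (1.62%) fell with all arrays. In the fits with an array left out, in the order given here, 81, 411, 670, 101, 127 and 50 of all genes fell. Ptprb, a phosphatase of endothelium, read 10.66, 10.15 and 10.24 and then 9.56, 9.73 and 9.48 (-0.76 ± 0.12, adjusted p = 0.00335), and Tek, the angiopoietin receptor, fell by 0.93 ± 0.17 (adjusted p = 0.00773). Tcf21, a transcription factor of lung fibroblasts, fell by 0.92 ± 0.18 (adjusted p = 0.0103), and Rtkn2 of alveolar type 1 cells read 8.99, 8.30 and 8.55 and then 7.62, 7.30 and 7.80 (-1.04 ± 0.20, adjusted p = 0.00915). These 4 genes passed with each array left out in turn. None of the 4 passed with the 6 control arrays alone (adjusted p = 0.107, 0.0866, 0.14 and 0.0952 for Ptprb, Tek, Tcf21 and Rtkn2). Ptprb, Tek, Tcf21 and Rtkn2 differed by -0.60, -0.76, -0.79 and -0.85 with the array labelled as control 0 hr replicate 1 left out, and all passed (adjusted p of at most 0.0479). The summed level of the 18 endothelial markers, as a mean per gene, was 9.03, 8.54 and 8.71 at 0 hr and 8.13, 8.47 and 8.26 at 3 hr. In bulk samples fewer cells of a type and less RNA per cell cannot be told apart, and the part of these cells in the other changes was not tested. Of 20 alveolar type 2 markers 1 fell, Sftpa1 (-0.48 ± 0.13, adjusted p = 0.0479), which lost its call without the array labelled as control 0 hr replicate 1 (adjusted p = 0.174), 0 hr replicate 2 (0.0613) or 3 hr replicates 2 and 3 (0.0772 and 0.186).

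Interferon-stimulated genes were high in a single 0 hr array. Ifit1 read 9.04 in the array labelled as control 0 hr replicate 1, 5.76 and 6.08 in the other 0 hr arrays and 5.64 to 5.88 at 3 hr, and Ifit3 read 11.53, 8.96 and 9.07 and then 8.14 to 8.55. Of 24 genes on the list 1 fell, Psmb9, an immunoproteasome subunit (-0.77 ± 0.21, adjusted p = 0.04998), and 0 rose, with a median of -0.55. Without that array 0 passed and the median was -0.24; without 0 hr replicate 2 the number that fell was 5, and without 0 hr replicate 3 or 3 hr replicates 2 or 3 it was 0. Without 3 hr replicate 1 it was 2. With the mean of its probe sets the cell cycle gene Top2a did not pass (-0.376, adjusted p of 0.154). On the chosen probe sets cell cycle genes were called in 2 of 29, Top2a (-0.79 ± 0.20, adjusted p = 0.0385) and Cenpe (-0.75 ± 0.19, adjusted p = 0.0424), both lower at 3 hr, and in 0 without the array labelled as control 0 hr replicate 1, 0 hr replicate 3 or 3 hr replicates 2 or 3; 3 fell and 1 rose without 3 hr replicate 1. Mki67, a marker of cycling cells, did not pass (-0.63 ± 0.21, adjusted p = 0.107). On the sterol and fatty acid list of 23, Scd2 and Scd1, desaturases of fatty acids, fell by 0.98 ± 0.19 and 0.91 ± 0.24 (adjusted p = 0.0114 and 0.0431). Scd1 lost its call without the array labelled as control 0 hr replicate 1 (0.161), 0 hr replicate 3 (0.0577), 3 hr replicate 1 (0.0702) or 3 hr replicate 3 (0.168). Scd2 lost its call without 3 hr replicate 3 (0.0595). The count on this list was 0 without 3 hr replicate 3 and 3 without 0 hr replicate 2.

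Some markers spread among arrays of the same time. Of 15 neutrophil markers 0 were called, and S100a8 read 7.80, 7.41 and 7.08 at 0 hr and 9.62, 6.83 and 10.30 at 3 hr (1.49 ± 0.73, adjusted p = 0.254), so replicates 1 and 3 were high and replicate 2 was below the 0 hr arrays. Without 3 hr replicate 2, 3 neutrophil markers rose. Of 33 ciliated cell markers Ift80 and Tekt4 fell (-0.43 ± 0.10 and -0.72 ± 0.19, adjusted p = 0.0283 and 0.04998), and Tekt4 passed only with all arrays or without 3 hr replicate 1. On this list 7 fell without 3 hr replicate 1, where 3.36% of all genes fell, and 0 fell without 0 hr replicate 3 or 3 hr replicates 2 or 3. The summed level of the 33 genes, as a mean per gene, was 8.66, 9.04 and 9.24 at 0 hr and 9.04, 8.70 and 8.26 at 3 hr. Foxj1, the master factor of cilia, did not pass (-0.26 ± 0.13, adjusted p = 0.26). Of 26 cardiac muscle genes 0 were called in control, where Myh6 read 8.23, 8.83 and 5.80 at 0 hr and 6.06, 6.06 and 6.81 at 3 hr, whereas 25 fell in Cebpa d/d. Without 0 hr replicate 3, which had the lowest 0 hr levels, 5 cardiac genes fell in control. Of 16 macrophage, 14 lymphocyte, 12 mucous cell, 10 basal cell and 3 red blood cell markers 0 were called. Of 8 neuroendocrine markers 1 rose, Uchl1, a ubiquitin hydrolase, with 6.38, 6.20 and 6.11 and then 7.45, 7.93 and 7.20 (1.30 ± 0.21, adjusted p = 0.00382).

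The same change was then read in Cebpa d/d mice. Their arrays give no level to the control comparison, but all 18 arrays set the spread behind the p-values of both genotypes, so the calls compared here are not separate readouts. There 531 genes rose and 343 fell (2.66% and 1.72%). Of the 374 genes that rose in control, 240 (64.2%) rose in Cebpa d/d, which is 45.2% of the 531, and 362 (96.8%) had the same sign, where 46.0% of all genes were above 0. Of the 323 that fell, 79 (24.5%) fell in Cebpa d/d, which is 23.0% of the 343, and 313 (96.9%) had the same sign, where 54.0% of all genes were below 0. None of the 697 was called in the opposite direction. Hmox1 rose by 4.29, Slc7a11 by 5.19, Srxn1 by 2.46 and Atf3 by 2.81 in Cebpa d/d, beside 3.96, 5.02, 2.55 and 2.67 in control. On the ATF4 list 32 of 43 rose in Cebpa d/d, on the NRF2 list 14 of 40 and on the immediate early list 19 of 40. Of the genes with the largest changes in control, Il1f9 (1.59, adjusted p = 0.142), Pdk4 (1.15, adjusted p = 0.0892), Nynrin (-0.85, adjusted p = 0.242) and Igfbp5 (-0.82, adjusted p = 0.142) did not pass in Cebpa d/d. The test of the difference itself, the Cebpa d/d change minus the control change, called 0 genes with limma, with a smallest adjusted p of 0.0571 and 1365 genes at an unadjusted p under 0.05. The fit with array weights called 24. The test called 14 without 0 hr replicate 2, 1 without 3 hr replicate 2 and 0 without the array labelled as control 0 hr replicate 1.

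**Figure D5:**
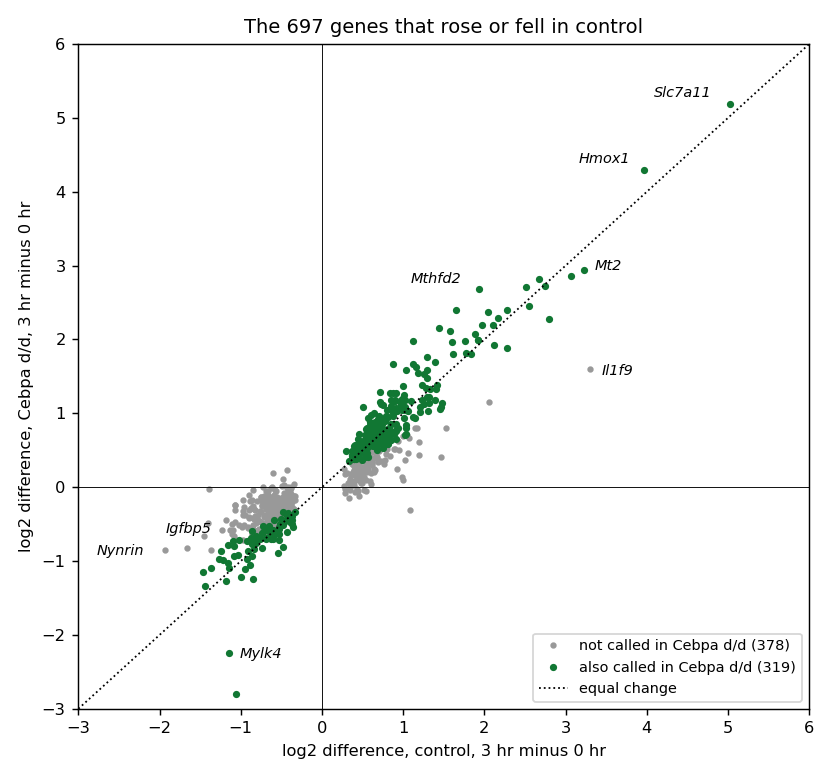
Log2 difference from 0 to 3 hr in control (x axis) and in Cebpa d/d (y axis) for the 697 genes that rose or fell in control; green points were also called in Cebpa d/d and the dotted line marks equal change. Genes that rose lie close to the dotted line, with Il1f9 below it, and those that fell lie mostly above it, closer to 0 in Cebpa d/d; since the genes were chosen by their control change, values nearer 0 on the y axis are in part built in.

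Values at 72 hr in control share the 0 hr arrays with the comparison above and are set beside it without a test of the 2 together. By sex-linked transcripts, all 3 control arrays at 72 hr came from females, against 1 of 3 at 0 hr, so time and sex cannot be told apart in full there. The genes that rose at 3 hr had a median of 0.05 for 72 hr minus 0 hr, and 35 of the 374 were also called higher at 72 hr, where 4.95% of all genes were. Slc7a11, Hmox1, Srxn1, Gclm and Osgin1 were at -0.17, -0.22, 0.13, -0.07 and -0.33 relative to 0 hr at 72 hr, and none of these passed. By contrast Mt2 was at 2.97 (adjusted p = 0.000274), Pdk4 at 2.06 (adjusted p = 0.00277), Mt1 at 1.77 (adjusted p = 0.00142), Ptgs2 at 1.18 (adjusted p = 0.00632) and Myc at 1.14 (adjusted p = 0.0219). The keratins Krt8 and Krt18 and the annexin Anxa1 were called higher at 72 hr too, Krt8 and Krt18 by 1.02 and 0.81. Anxa1 had risen by 1.01 ± 0.22 at 3 hr (adjusted p = 0.0219), a call that was lost without 0 hr replicate 2 or 3 or 3 hr replicate 2 or 3 (adjusted p = 0.0557, 0.0644, 0.0834 and 0.101). Top2a, lower at 3 hr, was at 1.91 at 72 hr.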

How the data were processed

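RNA of terminal bronchiolar epithelial cells was measured on Affymetrix Mouse Gene ST arrays. The authors deposited 1 log2 value per probe set and array. RMA is named in the submitters' processing notes; its version, the build and any filter are not given in the sources used here. Of 35557 probe sets, 21789 named 1 gene, 1621 several and 12147 none; the probe set with the highest mean was kept for each of 19938 genes.

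A limma 3.58.1 model (R 4.3.3) of 6 group means was fitted to all 18 arrays (12 residual and 4.49 prior degrees of freedom), with Benjamini-Hochberg adjustment over all genes. Tested on simulated data for this comparison on 19938 genes, it recovered 22, 42, 50 and 50 of 50 genes changed by 0.5, 1, 2 and 4 log2 units. No scanner files were used, so saturation was not examined. Precision is limited by 3 arrays a group.

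The comparison and its 44 gene lists (955 of 1011 genes measured) were chosen with earlier results of these data known. Named genes were Cebpa, the 20 largest rises and 20 largest falls with arrays that do not overlap, up to 6 called members of each list in each direction, and the first 3 members of each list; Cyp2f2, Xist, Eif2s3y, Il6, Timp1, Mmp8, Rsph4a and the Mir17hg cluster were chosen after their values were seen. Promoter windows were taken 250 bases before RefSeq start sites. Alternatives left out arrays, changed the arrays fitted, added a replicate block or sex term, averaged probe sets, weighted, centred or filtered.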

Additional observations from a re-analysis of the deposited data

Results flagged for a closer look

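Probe sets without a single gene name were left out of the comparisons. Some of them differed between 0 and 3 hr in control in a separate limma fit of the same design, adjusted over all 35557 probe sets. Of 1621 probe sets that name several genes, 18 were higher and 6 were lower at 3 hr. Of 12147 with no gene name, 55 were higher and 29 were lower. Both kinds gave smaller shares than the genes tested, of which 1.88% rose and 1.62% fell.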

How the results depend on the processing

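The number of genes called from 0 to 3 hr in control was 697, and it was 231 to 1414 when each of the 6 arrays was left out in turn (178 to 744 rose, 50 to 670 fell). It was 55 (50 rose, 5 fell) with only the 6 control arrays at 0 and 3 hr, 46 (41 and 5) with those arrays less the array labelled as control 0 hr replicate 1, 257 (171 and 86) with only the 9 control arrays, 120 for at least 2-fold changes, and 253 (205 and 48) with a sex term and without that array, an alternative chosen after seeing the data. With the replicate number as a block 528 were called (299 and 229), and 242 (193 and 49) without that array; same-numbered arrays did not deviate together (correlations of -0.108, -0.288 and -0.157), so the numbers were not taken as pairs. Probe-set means, a filter at the median level, a trended and robust fit, array weights, centring and a sex term kept the count within 1.5 times, and centring gave 251 that rose and 238 that fell after a shift of -0.03. In Cebpa d/d 874 genes were called and 200 at 2-fold or more. The genotype difference called 0 to 14 genes with 1 array left out and 24 with array weights. Of 129 called genes examined one by one, 57 passed with each array left out and 30 passed in each of the 12 alternatives run on single genes. Of the 129, 0 changed sign, which leaving out an array cannot do where the arrays of the 2 times do not overlap.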

Other observations

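Genes of small nucleolar RNAs and their hosts, which guide the chemical marking of ribosomal RNA, were looked at by symbol after the values had been seen, so their count is a description. Of 56 measured genes named Snora, Snord or Snhg, 10 rose and 0 fell, with a median of 0.46, where 1.88% of all genes rose. The count was 8 without the array labelled as control 0 hr replicate 1, where 1.14% of all genes rose. In Cebpa d/d 2 rose, which is near the 2.66% of all genes that rose there.

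The Mir17hg cluster, a microRNA host gene known as a target of Myc, was also picked after its values were seen. Mir17hg read 6.25, 6.22 and 6.04 at 0 hr and 6.60, 7.12 and 6.91 at 3 hr (0.71 ± 0.14, adjusted p = 0.0139), Mir17 read 4.94, 5.02 and 5.60 and then 5.50, 7.10 and 6.44 (1.16 ± 0.28, adjusted p = 0.0343), and Mir18 read 4.75, 4.81 and 5.17 and then 5.78, 7.46 and 6.43 (1.65 ± 0.37, adjusted p = 0.0231). Mir17 overlapped between times, and of the 3 only Mir17hg passed when the array labelled as control 0 hr replicate 1 was left out (adjusted p = 0.0316, against 0.113 and 0.0744); Mir17hg did not pass without 0 hr replicate 3 or 3 hr replicates 2 or 3 (0.0602, 0.0621 and 0.0534). Mir20a, Mir19a and Mir19b-1 did not pass (0.76 ± 0.44, 0.01 ± 0.07 and 0.35 ± 0.22, adjusted p = 0.333, 0.923 and 0.375). The probe sets are named for the genes, and whether they read the precursor or a mature strand was not settled. The RefSeq mature strands (GRCm38.p6) below show the seed, bases 2 to 8, in capitals; miR-17 and miR-20a share theirs.
mmu-miR-17-5p: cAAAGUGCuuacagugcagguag
mmu-miR-20a-5p: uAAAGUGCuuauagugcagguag
mmu-miR-18a-5p: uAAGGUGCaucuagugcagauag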
